A study of Mus musculus with 6 samples.

Results

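The SLC25 carriers and the TIMM and TOMM import proteins of mitochondria were followed at the level of RNA in injured mouse liver. The genes were taken by name, as every gene of the count table called Slc25a, Timm or Tomm followed by a number, which gave 66 of 15454 rows. Of these, 43 encode carriers and 23 encode import proteins, and 63 (40 carriers and all 23 import genes) held enough reads to be tested. Another 6 genes of these names stood only in the table of FPKM (fragments scaled for transcript length and library size) and were listed at 0 in every liver, namely Slc25a31, Slc25a41, Slc25a43, Slc25a54, Tomm20l and Timm8a2.

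Bulk RNA was sequenced from tissue of 6 livers of male C57BL/6 mice aged 8 to 10 weeks. All had gone through warm ischemia and reperfusion of 75% of the liver. Whether the sequenced tissue came from ischemic or spared lobes is not given in the sources used here. The I/R group (n = 3) had received vehicle and the I/R+Rk2 group (n = 3) the ginseng saponin ginsenoside Rk2, each 2 days ahead of surgery and once more as perfusion began. No sham-operated liver was analysed here, so values describe I/R+Rk2 relative to I/R and not to healthy liver. The labels give no dose, while the study names the treated group of its liver sequencing as the high-dose one. They do not state that each liver came from a different mouse, so p-values measure the spread between these samples only.

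Mitochondria make few of their own proteins, and nearly all others are made in the cytosol and threaded through the TOM complex of the outer membrane. From there, proteins with a cleavable presequence pass the TIM23 complex into the matrix, whereas the carriers themselves are handed by small TIM chaperones to the TIM22 complex, which inserts them into the inner membrane. Once inserted, SLC25 carriers exchange ATP, phosphate, acids of the citrate cycle, amino acids, acylcarnitines and cofactors across that membrane, and in hepatocytes they feed urea synthesis, gluconeogenesis, lipid synthesis and fatty acid oxidation.

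Total counts ran from 16809613 to 35618074 per liver, and the 66 genes held 0.340% to 0.415% of them. Levels are given as CPM, counts relative to the library size after scaling by trimmed mean of M values (TMM), and the TMM factors were 1.01 to 1.14 in the I/R group and 0.914 to 0.975 in the I/R+Rk2 group. At this depth 3 counts stand for 0.0888 to 0.184 CPM, a limit that covers counting error only. The livers also differed in their cell markers. At an adjusted p below 0.05, 20.3% of all genes tested were higher and 23.7% lower in I/R+Rk2. All 12 monocyte markers and 11 of 12 neutrophil markers were lower in I/R+Rk2, with summed levels of 514 to 609 against 71.0 to 108 CPM and of 1162 to 1476 against 152 to 312 CPM. Of 12 hepatocyte markers, 6 were higher and 1 was lower, and their sum was 69784 to 80646 CPM in the I/R group and 103263 to 128489 CPM in the I/R+Rk2 group. Alb made up most of that sum, at 49227 ± 4366 and 80119 ± 10007 CPM, and the marker that was lower was Hnf4a. In bulk liver, fewer cells of a type and less RNA per cell cannot be told apart, and the part of these differences in the results for carriers and import genes was not tested.

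With TMM scaling, more carriers were higher than lower in I/R+Rk2, but the largest change was a fall. Of 40 carriers tested, 15 (37.5%) were higher and 5 (12.5%) lower at an adjusted p below 0.05, where 20.3% of all 12411 genes tested were higher and 23.7% lower. Their median log2 fold change was 0.27, against -0.01 over all genes. With a fold change above 2 as well, the limits that the study used, only Slc25a35 was higher and Slc25a30, Slc25a36, Slc25a24 and Slc25a51 were lower, whereas 3.17% of all genes passed these limits upward and 11.4% downward. In 17 carriers every I/R+Rk2 liver lay above every I/R liver and in 6 every one lay below, shares that were 27.1% and 30.3% over all genes. Of the 23 import genes, 7 (30.4%) were higher, 2 (8.70%) were lower and none passed the fold limit, and their median log2 fold change was 0.15. Without TMM factors, on library size alone, the median of all genes moved to -0.17, 8 carriers were called higher and 6 lower, 1 import gene was called higher and 2 lower, and 10.6% of all genes were called higher. With limma on the FPKM values, 6 to 7 carriers were higher and 5 lower, and 1 import gene was higher and 2 lower. These fits tested 33 carriers with a mean FPKM of at least 1 and 43 without that filter. Of all genes, 7.27% to 11.8% were higher in them, and 2670 of 9914, 2633 of 9914 and 3009 of 15465 were lower. More import genes were thus lower than higher on library size alone and on FPKM, where calls of all genes moved downward too. Relative to the median of all genes, the carriers stood 0.278 higher and the import genes 0.159 higher on library size alone, and 0.278 and 0.158 higher with TMM. Without I/R replicate 1 the lower carriers were 3, beside 2213 of 12565 genes lower in that fit. Without I/R+Rk2 replicate 2 the higher import genes were 4, beside 13% of all genes higher.

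**Figure D1:**
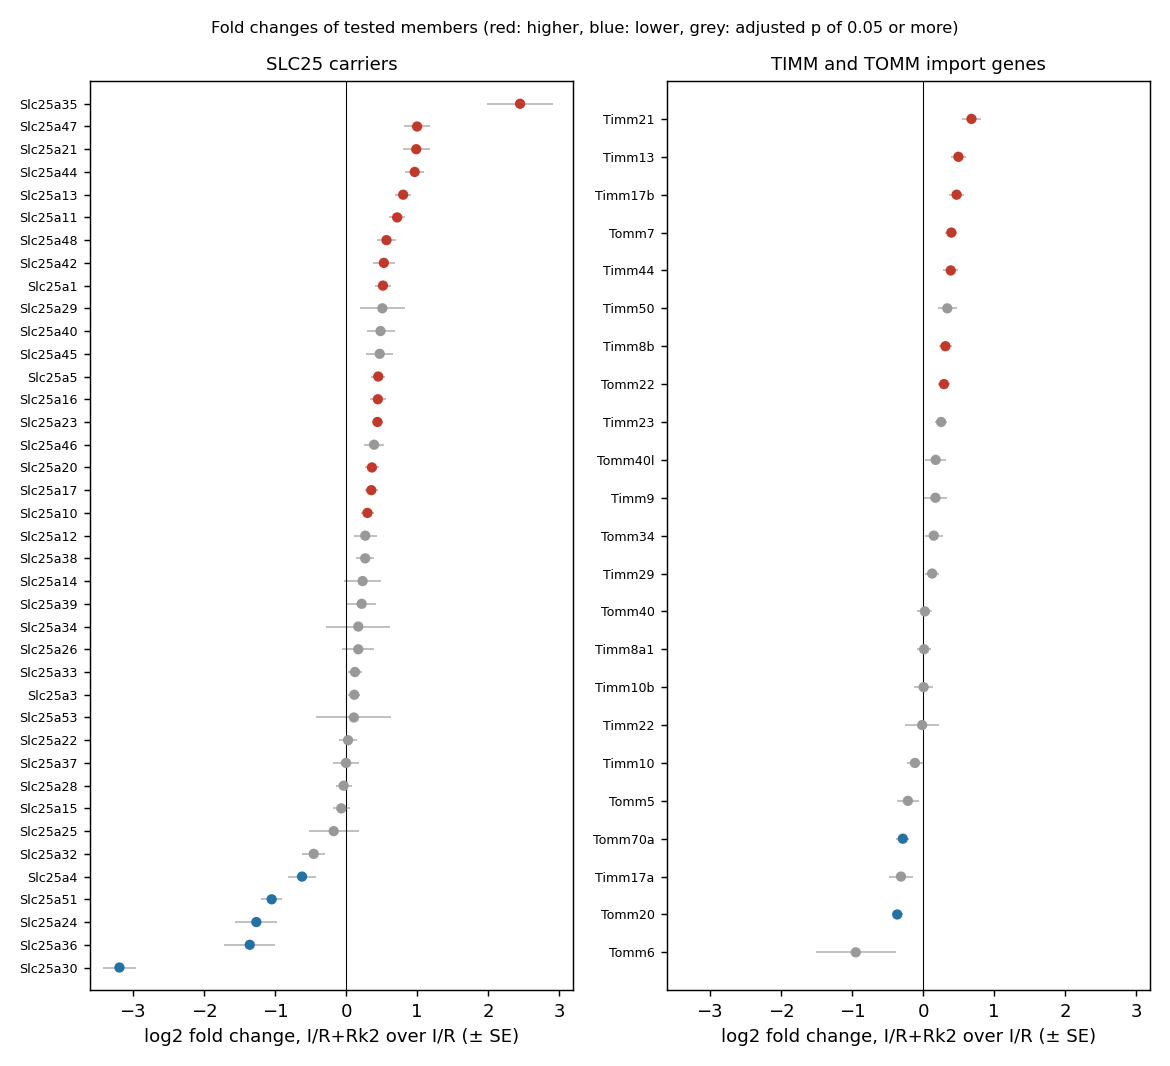
Log2 fold changes of I/R+Rk2 over I/R with their standard errors for the tested carriers (left, all but 1) and the 23 import genes (right). Red points are higher and blue points lower at an adjusted p below 0.05, and grey points did not pass. Carriers span -3.19 to 2.45 and import genes -0.95 to 0.68.

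Slc25a30, a relative of the uncoupling proteins also known as kidney mitochondrial carrier protein, had the largest fall of any member. It stood at 77.4, 75.9 and 79.3 CPM across the I/R livers and at 10.6, 5.60 and 9.58 CPM across the I/R+Rk2 livers. The lowest I/R liver lay far above the highest I/R+Rk2 liver, and the 3 I/R livers lay within a narrow range. Mean levels were 77.6 ± 1.70 and 8.59 ± 2.64 CPM (SD, n = 3), which gave a log2 fold change of -3.19 (standard error 0.23, adjusted p = 0.00025). The gene spans positions 75760117 to 75787037 of chromosome 14, and it passed the test in all 17 alternative analyses. Slc25a14, another uncoupling protein relative, was measured at 1.26 ± 0.0926 and 1.48 ± 0.299 CPM and did not pass (adjusted p = 0.492). The third relative, Slc25a27, had 8, 2 and 9 counts in the I/R group and 3, 4 and 3 counts in I/R+Rk2 and was not tested.

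The start regions of 6 members are shown because these genes carry the main contrasts, from the largest fall to the most abundant carrier and the import genes that moved in opposite directions. Each is the RefSeq promoter on GRCm38.p6, written on the strand of the gene with the start base as position 1. Capitals mark matches, on either strand, to GCGCATGC (the NRF1 motif), CCGGAAG (the core bound by GABP), AAGATGGCG (the YY1 motif) and CACGTG (the E-box), the first 3 being motifs of factors known for mitochondrial genes.
Slc25a30, chr14:75786988-75787287, minus strand: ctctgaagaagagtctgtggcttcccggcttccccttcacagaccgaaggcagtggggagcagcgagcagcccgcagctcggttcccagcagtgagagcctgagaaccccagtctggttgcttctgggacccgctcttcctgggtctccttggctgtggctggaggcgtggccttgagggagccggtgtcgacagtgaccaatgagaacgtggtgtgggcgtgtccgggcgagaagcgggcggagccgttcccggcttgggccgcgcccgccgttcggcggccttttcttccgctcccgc
Slc25a47, chr12:108850879-108851178, plus strand: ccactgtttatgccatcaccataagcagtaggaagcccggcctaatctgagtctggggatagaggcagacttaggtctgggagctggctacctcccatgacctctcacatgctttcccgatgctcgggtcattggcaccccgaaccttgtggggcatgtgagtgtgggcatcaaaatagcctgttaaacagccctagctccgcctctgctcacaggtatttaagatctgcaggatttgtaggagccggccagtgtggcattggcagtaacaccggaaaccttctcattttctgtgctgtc
Slc25a13, chr6:6217124-6217423, minus strand: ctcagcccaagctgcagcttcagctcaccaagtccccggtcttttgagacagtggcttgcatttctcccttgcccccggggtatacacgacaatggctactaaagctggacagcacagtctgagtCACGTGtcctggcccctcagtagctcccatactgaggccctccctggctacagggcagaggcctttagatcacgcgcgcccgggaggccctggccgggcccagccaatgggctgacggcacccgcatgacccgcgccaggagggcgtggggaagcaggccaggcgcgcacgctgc
Timm13, chr10:80900920-80901219, minus strand: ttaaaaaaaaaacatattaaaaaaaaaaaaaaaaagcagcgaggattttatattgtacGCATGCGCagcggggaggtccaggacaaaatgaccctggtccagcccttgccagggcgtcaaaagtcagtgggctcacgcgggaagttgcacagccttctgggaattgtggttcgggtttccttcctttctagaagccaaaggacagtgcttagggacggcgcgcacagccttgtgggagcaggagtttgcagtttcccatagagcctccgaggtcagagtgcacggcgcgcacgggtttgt
Tomm20, chr8:126945872-126946171, minus strand: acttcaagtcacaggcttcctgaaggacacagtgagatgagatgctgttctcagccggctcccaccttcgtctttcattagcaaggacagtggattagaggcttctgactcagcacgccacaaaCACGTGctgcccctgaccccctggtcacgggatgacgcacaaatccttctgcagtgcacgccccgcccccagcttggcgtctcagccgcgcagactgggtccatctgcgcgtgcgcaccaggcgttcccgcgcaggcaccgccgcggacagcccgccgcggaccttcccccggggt
Tomm70a, chr16:57121464-57121763, plus strand: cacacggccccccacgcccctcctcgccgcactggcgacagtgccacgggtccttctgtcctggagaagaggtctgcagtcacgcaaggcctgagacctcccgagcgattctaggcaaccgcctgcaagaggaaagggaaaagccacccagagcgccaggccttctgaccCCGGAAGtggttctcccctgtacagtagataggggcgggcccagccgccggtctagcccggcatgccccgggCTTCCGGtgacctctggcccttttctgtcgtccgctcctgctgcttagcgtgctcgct

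The windows of Slc25a30 and Slc25a47 held none of these 4 letter strings. The E-box stood at position -125 in Slc25a13, which was higher in I/R+Rk2, and at -126 in Tomm20, which was lower. Timm13 held the NRF1 motif at -192, and Tomm70a held the GABP core at -80 and -8. A promoter was given for 53 of the 66 genes, 33 carriers and 20 import genes. The GABP core was found for 8 of the 20 import genes and 6 of the 33 carriers, and for 9.93% of the 27025 genes with a promoter. The E-box was found for 4 import genes and 6 carriers (8.09% of all genes), the NRF1 motif for 1 and 0 (3.05%), and the YY1 motif for 1 of each (1.64%). The Slc25a30 window was 66.7% G and C with 25 CpG, that of Slc25a47 was 53.3% with 7 CpG, and the median over all 32851 promoters was 52.7% with 7. The median was 59% with 15 CpG over carrier promoters and 58.3% with 20 over import promoters, so all promoters are an unlike background for them. The part of this difference in the motif shares was not tested.

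Slc25a51, which brings NAD into mitochondria, was also lower. Its levels were 122, 128 and 104 CPM in the I/R group and 46.6, 60.5 and 64.4 CPM in the I/R+Rk2 group, so the groups did not overlap. The mean fell from 118 ± 12.4 to 57.2 ± 9.35 CPM (log2 fold change -1.05, standard error 0.14, adjusted p = 0.00182), and the call held in all 17 alternatives.

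Slc25a24, a calcium-regulated ATP-magnesium/phosphate carrier, received 90, 145 and 150 counts in controls and 80, 58 and 28 after Rk2. In CPM these were 4.69, 5.66 and 5.98 against 3.36, 1.72 and 1.72, with I/R+Rk2 replicate 1 nearest to the I/R livers. The log2 fold change was -1.26 (standard error 0.29, adjusted p = 0.0127). Slc25a36, a pyrimidine nucleotide carrier, was lower still in abundance, at 3.49, 2.50 and 2.43 CPM against 0.588, 1.24 and 1.47 CPM. Its log2 fold change was -1.35 (standard error 0.36, adjusted p = 0.0203), and leaving out I/R replicate 1 ended the call, as did a replicate block. The related Slc25a33 stood at 22.3 ± 1.23 and 24.3 ± 1.56 CPM and did not pass (adjusted p = 0.321).

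**Figure D2:**
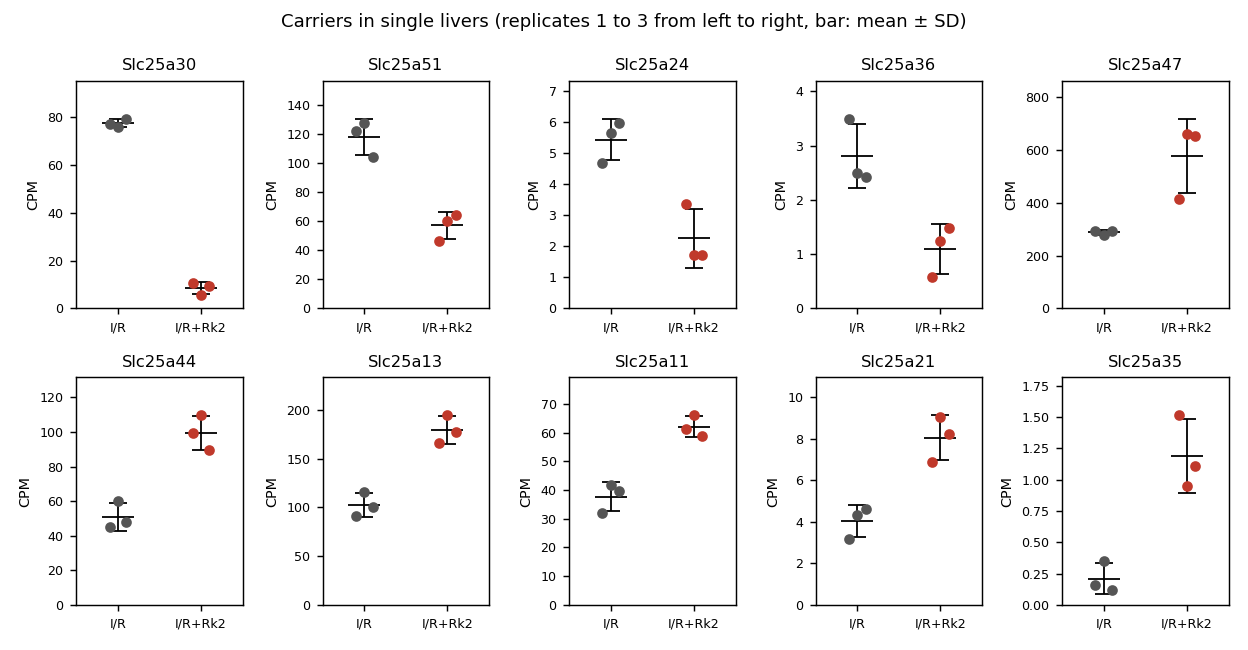
Levels of 10 carriers in single livers, in CPM on axes that start at 0, with the mean ± SD of each group of 3 (I/R in grey, I/R+Rk2 in red). The groups do not overlap in any panel. Slc25a30 goes from 77.6 to 8.59 CPM, and for Slc25a47 I/R+Rk2 replicate 1 lies at 416 CPM, below the other 2 livers of its group.

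Carriers of di- and tricarboxylates had 5 of 6 members (83.3%) higher and none lower, beside 20.3% and 23.7% of all genes. Their median log2 fold change was 0.62. Slc25a11, the oxoglutarate-malate carrier of the malate-aspartate shuttle, stood at 32.0, 41.6 and 39.5 CPM in the I/R group and 61.4, 66.0 and 59.0 CPM in the I/R+Rk2 group. All 3 treated livers were above all 3 controls, with a log2 fold change of 0.72 (standard error 0.12, adjusted p = 0.00332). Slc25a1, which exports citrate for lipid synthesis, went from 129 ± 17.1 to 185 ± 8.89 CPM (log2 fold change 0.52, adjusted p = 0.00944). In FPKM the groups of Slc25a1 overlapped, and it was called in 14 of 17 alternatives, the call being lost with limma on FPKM. Slc25a21, the oxoadipate carrier of lysine breakdown, was scarce but rose from 4.05 ± 0.763 to 8.05 ± 1.08 CPM (log2 fold change 0.99, adjusted p = 0.00603). The dicarboxylate carrier Slc25a10 was the smallest of these rises, from 87.8 ± 6.97 to 108 ± 4.85 CPM (log2 fold change 0.30, adjusted p = 0.031), and it was called in 8 of 17 alternatives.

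The fifth was Slc25a35, a poorly characterised relative of yeast oxaloacetate transport proteins. Its counts were 3, 9 and 3 in the I/R group and 36, 32 and 18 in the I/R+Rk2 group. The fitted log2 fold change of 2.45 (standard error 0.46, adjusted p = 0.00565) rests on these few reads, and 2 of the I/R livers lie at the 3-count limit. Rangrf, on the opposite strand, covers 31.3% of its exon bases and had a log2 fold change of -0.38 (adjusted p = 0.273). The strand setting of the counting is not given in the sources used here, so reads of these neighbours cannot be told apart. Slc25a34, the closest relative in the list, stood at 1.36 ± 0.547 and 1.53 ± 0.671 CPM and did not pass (adjusted p = 0.778).

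Of 10 amino acid carriers and close relatives tested, 4 (40%) were higher and none lower, beside 20.3% and 23.7% of all genes. The median log2 fold change was 0.49. Slc25a47, a carrier found mainly in liver, had the highest mean FPKM over the 6 livers of all members, though in the I/R group alone Slc25a39 was above it (195 against 182 FPKM). Its levels were 295, 277 and 295 CPM in the I/R group and 416, 663 and 655 CPM in the I/R+Rk2 group. The I/R livers were close together, while I/R+Rk2 replicate 1 lay between the groups. The mean rose from 289 ± 10.1 to 578 ± 140 CPM (log2 fold change 1.0, standard error 0.18, adjusted p = 0.00473), called in all 17 alternatives. The GENCODE annotation starts the gene at position 108836046 of chromosome 12, 163 bases from the divergent Slc25a29, and the RefSeq start shown above lies further inside it. Slc25a29, a carrier of basic amino acids, was measured at 1.43 ± 0.43 and 2.04 ± 0.534 CPM (log2 fold change 0.51, adjusted p = 0.227).

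Slc25a44, which imports branched-chain amino acids, stood at 44.9, 60.0 and 48.0 CPM in the I/R group and at 99.2, 110 and 89.8 CPM in the I/R+Rk2 group. The lowest treated liver was well above the highest control, and the log2 fold change was 0.97 (standard error 0.13, adjusted p = 0.00189). Slc25a13 (citrin), the main aspartate-glutamate carrier of liver, stood at 91.7, 116 and 101 CPM against 166, 195 and 177 CPM. Again the groups did not overlap, with a log2 fold change of 0.80 (standard error 0.11, adjusted p = 0.00193). Slc25a48, reported as a choline carrier, was the fourth, from 6.78 ± 0.597 to 10.1 ± 0.918 CPM (log2 fold change 0.57, adjusted p = 0.0124). It was called in 13 of 17 alternatives.

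The other tested members of this group did not pass. Slc25a15, the ornithine carrier, had 396 ± 27.5 and 378 ± 47.8 CPM (adjusted p = 0.667), and Slc25a22, a glutamate carrier, had 99.8 ± 16.6 and 102 ± 2.79 CPM (adjusted p = 0.873). Slc25a12 (aralar), the aspartate-glutamate carrier of excitable tissues, had 13.6 ± 0.707 and 16.4 ± 3.41 CPM (adjusted p = 0.212). The glycine carrier Slc25a38 and Slc25a45, a carrier of methylated basic amino acids, had log2 fold changes of 0.27 and 0.47 (adjusted p = 0.117 and 0.0788). Slc25a2 and Slc25a18 were not tested, with 2, 1 and 0 against 1, 5 and 4 counts and with 0, 0 and 0 against 0, 4 and 0 counts.

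Among 6 carriers of adenine nucleotides and phosphate, 2 were higher and 2 lower (33.3% each), beside 20.3% and 23.7% of all genes. Slc25a5, the ADP/ATP carrier ANT2, rose from 217 ± 19.1 to 298 ± 20.8 CPM (log2 fold change 0.45, standard error 0.10, adjusted p = 0.0102). It was called in 12 of 17 alternatives and had a log2 fold change of 0.21 with the length trend removed (adjusted p = 0.131). Its paralog Slc25a4, ANT1 of heart and muscle, was scarce and lower, at 7.61, 4.96 and 6.14 CPM against 3.91, 4.44 and 3.75 CPM (log2 fold change -0.62, standard error 0.19, adjusted p = 0.0369). The groups were close together for Slc25a4, and it was called in 10 of 17 alternatives. Slc25a23, an ATP-magnesium/phosphate carrier like Slc25a24, rose from 179 ± 7.51 to 243 ± 6.06 CPM (log2 fold change 0.44, standard error 0.08, adjusted p = 0.00425), so these relatives moved in opposite directions. The third of that kind, Slc25a25, stood at 232, 291 and 134 CPM in the I/R group and 241, 229 and 113 CPM in the I/R+Rk2 group. It was low in replicate 3 of both groups and did not pass (adjusted p = 0.712). The phosphate carrier Slc25a3 had 220 ± 12.0 and 239 ± 12.9 CPM (adjusted p = 0.301).

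The carnitine-acylcarnitine carrier Slc25a20, needed for fatty acid oxidation, was higher, at 67.7 ± 2.69 and 87.2 ± 9.20 CPM (log2 fold change 0.36, adjusted p = 0.023), but was called in only 7 of 17 alternatives. Of 11 carriers of cofactors, nucleotides and glutathione, 3 (27.3%) were higher and 2 (18.2%) lower, beside 20.3% and 23.7% of all genes. The 2 lower ones were Slc25a51 and Slc25a36, described above. The 3 that rose were the coenzyme A carriers Slc25a16 (log2 fold change 0.45, adjusted p = 0.0189) and Slc25a42 (0.53, adjusted p = 0.0316) and Slc25a17 (0.36, adjusted p = 0.0184), which sits in peroxisomes. Slc25a42 was called in 8 and the other two in 10 of 17 alternatives. Slc25a32, a folate and FAD carrier, lay lower in every I/R+Rk2 liver, at 13.3 ± 0.849 and 9.70 ± 1.79 CPM, with an adjusted p of 0.0522. Slc25a39 and Slc25a40, which carry glutathione, stood at 194 ± 38.0 and 226 ± 53.7 CPM and at 2.09 ± 0.217 and 2.92 ± 0.294 CPM, and neither passed (adjusted p = 0.415 and 0.0825). Nor did the S-adenosylmethionine carrier Slc25a26 (log2 fold change 0.17, adjusted p = 0.563). The mitoferrins Slc25a28 and Slc25a37, which bring iron into mitochondria, did not pass (adjusted p = 0.825 and 1), at 15.3 ± 1.49 and 14.9 ± 0.387 CPM and at 43.5 ± 3.62 and 43.4 ± 11.5 CPM, while all 5 erythroid markers tested were higher in I/R+Rk2. Slc25a46, an outer membrane protein of mitochondrial dynamics, had a log2 fold change of 0.40 (adjusted p = 0.0592), and the orphan carrier Slc25a53 had 0.11 (adjusted p = 0.882).

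Among the import genes, the TIM23 translocase and its motor held 3 of the 7 higher calls. These were 3 of its 6 members (50%), beside 20.3% of all genes, and the median log2 fold change was 0.37. Timm21, which links TIM23 to the TOM complex and the respiratory chain, stood at 9.12, 8.55 and 10.2 CPM in the I/R group and 13.3, 14.7 and 16.7 CPM in the I/R+Rk2 group. The groups did not overlap, and the log2 fold change was 0.68 (standard error 0.13, adjusted p = 0.00636). It was the only import gene called in all 17 alternatives. Timm17b, a channel subunit, rose from 21.2 ± 1.53 to 29.4 ± 2.56 CPM (log2 fold change 0.47, adjusted p = 0.0109), and Timm44, which anchors the import motor, rose from 26.5 ± 2.03 to 34.7 ± 2.91 CPM (log2 fold change 0.39, adjusted p = 0.02). Timm44 was called in 9 of 17 alternatives and Timm17b in 13, and in FPKM the groups of Timm44 overlapped, with I/R+Rk2 replicate 1 lowest of all 6 livers at 14.9. The channel protein Timm23 and the presequence receptor Timm50 lay higher in every I/R+Rk2 liver without passing (log2 fold changes 0.25 and 0.34, adjusted p = 0.0535 and 0.0729).

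Small TIM chaperones, which escort carriers through the intermembrane space, had 2 of 6 members (33.3%) higher, beside 20.3% of all genes. Timm13 stood at 18.1, 16.6 and 19.9 CPM against 27.1, 24.2 and 25.7 CPM, without overlap (log2 fold change 0.50, standard error 0.11, adjusted p = 0.00893), and was called in 12 of 17 alternatives, with a Timm13 log2 fold change of 0.25 (adjusted p = 0.0953) when the length trend was removed. Timm8b went from 28.9 ± 1.96 to 36.0 ± 0.36 CPM (log2 fold change 0.31, adjusted p = 0.0219), but its sign turned, to -0.04, when a trend with transcript length was removed. Timm8a1, which like Timm8b pairs with Timm13 in these chaperones, was at 22.8 ± 1.68 and 23.0 ± 1.44 CPM (adjusted p = 0.918). Of Timm9, Timm10 and Timm10b none passed (log2 fold changes 0.17, -0.11 and 0.01), nor did Timm22 and Timm29 of the carrier translocase itself (log2 fold changes -0.01 and 0.13, adjusted p = 0.969 and 0.308).

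The 9 TOM genes had 2 members higher and 2 lower (22.2% each), which is near the 20.3% and 23.7% of all genes. The small subunit Tomm7 stood at 31.5, 28.1 and 30.3 CPM in the I/R group and 38.8, 41.3 and 38.3 CPM in the I/R+Rk2 group (log2 fold change 0.40, standard error 0.09, adjusted p = 0.00952). The CPM did not overlap, but Tomm7 was called in 12 of 17 alternatives and had a log2 fold change of 0.13 with the length trend removed (adjusted p = 0.311). The central receptor Tomm22 rose from 35.8 ± 1.96 to 43.9 ± 1.90 CPM (log2 fold change 0.29, adjusted p = 0.0272), but was called in only 7 of 17 alternatives, with log2 fold changes down to 0.09. By contrast, both receptors that first meet precursors were lower. Tomm20, the presequence receptor, stood at 55.5, 58.3 and 58.0 CPM against 46.6, 44.2 and 42.7 CPM, with no overlap and a log2 fold change of -0.36 (standard error 0.08, adjusted p = 0.00946), lost only when the length trend was removed. Tomm70a, the receptor for carrier precursors, stood at 109, 96.5 and 105 CPM against 77.9, 88.8 and 88.1 CPM (log2 fold change -0.28, standard error 0.09, adjusted p = 0.0398). Tomm70a was called in 9 of 17 alternatives, and it too lost the call when the length trend was removed. Leaving out 1 liver ended the Tomm70a call for 5 of the 6 livers. The channel Tomm40 had 30.6 ± 0.972 and 31.1 ± 3.71 CPM (adjusted p = 0.861), and neither Tomm5 nor Tomm34, a cytosolic cochaperone, passed (adjusted p = 0.302 and 0.372).

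**Figure D3:**
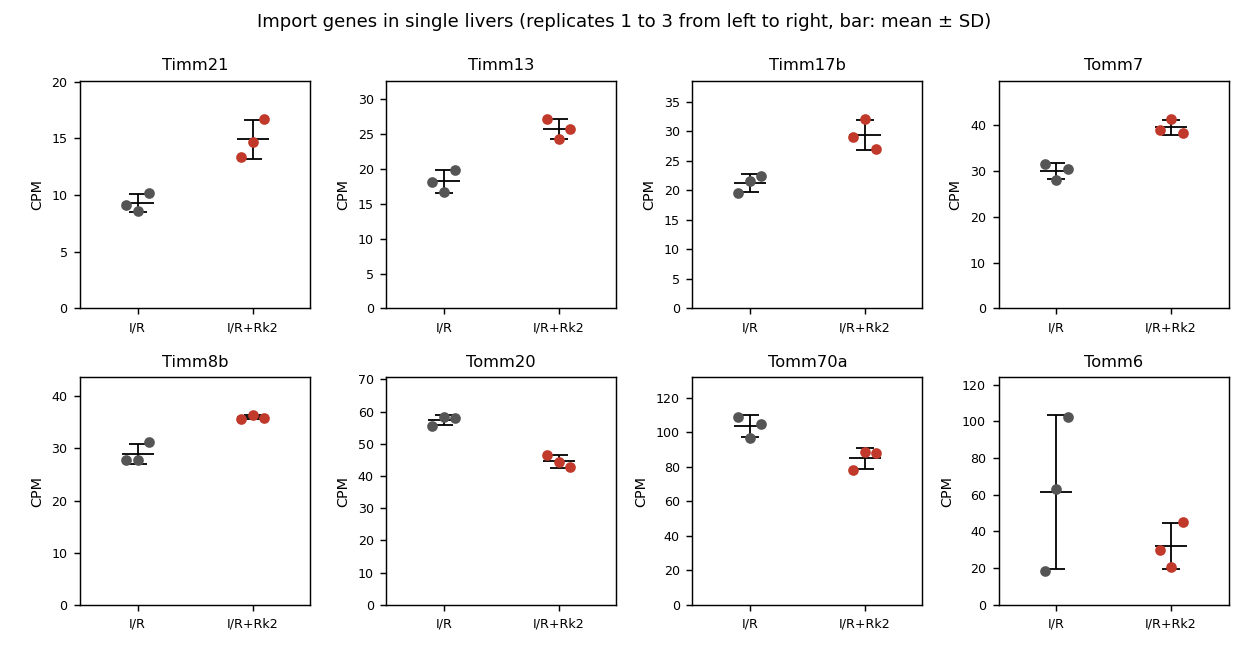
Levels of 8 import genes in single livers, in CPM on axes that start at 0, with the mean ± SD of each group of 3 (I/R in grey, I/R+Rk2 in red). Timm21, Timm13, Timm17b, Tomm7 and Timm8b are higher and Tomm20 and Tomm70a lower in I/R+Rk2 without overlap of the groups. Tomm6 ranges from 18.5 to 102 CPM within I/R.

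Counts of Tomm6, a small TOM subunit, could not be read alone. They were 354, 1617 and 2567 in the I/R group and 711, 704 and 739 in the I/R+Rk2 group, and within I/R they ranged from 18.5 to 102 CPM. Gm21981, on the same strand, covers 76.0% of the exon bases of Tomm6 and had 1430, 955 and 3 counts in the I/R group and 340, 695 and 1306 in the I/R+Rk2 group, so it was high in the I/R liver where Tomm6 was low. Summed, both rows gave 98.6 ± 4.96 CPM in the I/R group and 70.4 ± 47.8 CPM in the I/R+Rk2 group (log2 fold change -0.49, standard error 0.41, adjusted p = 0.357), where Tomm6 alone had -0.95 (adjusted p = 0.21). Gm45799 covers 10.5% of Timm10b on the same strand, and their sum had a log2 fold change of 0.13 (adjusted p = 0.446). Nr1i3, on the opposite strand, covers 64.3% of the exon bases of Tomm40l, and it was higher in I/R+Rk2 (log2 fold change 1.02, adjusted p = 0.00505), while Tomm40l was not called (log2 fold change 0.18, adjusted p = 0.369). Nkapd1, on the opposite strand, covers 15.6% of the exon bases of Timm8b, which is among the higher calls. As the strand setting of the counting is not given, reads of opposite-strand neighbours cannot be told apart. Tomm6, Timm10b, Tomm40l and Timm8b are therefore uncertain.

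Levels between genes were compared by FPKM, which is set per length. The most abundant carriers by mean FPKM over the 6 livers were Slc25a47 at 252, Slc25a39 at 200, Slc25a5 at 195, Slc25a3 at 146 and Slc25a1 at 109. The most abundant import genes were Tomm6 at 60.1, Timm8b at 58.5, Tomm22 at 37.2, Timm23 at 34.5 and Tomm7 at 28.8. Tomm6 had 80.7 ± 51.8 FPKM in the I/R group and 39.5 ± 14.1 in the I/R+Rk2 group, where Timm8b had 61.7 ± 1.72. Summed over all carriers, FPKM was 1526, 1537 and 1364 in the I/R group and 1576, 1784 and 1611 in the I/R+Rk2 group, a ratio of means of 1.12, which was 1.03 when Slc25a47 was left out. In the amino acid group the sum went from a mean of 411 ± 35.9 to 564 ± 83.6 FPKM, and without Slc25a47 it was 230 ± 25.3 and 242 ± 16.0 FPKM. For the import genes the sum was 482 ± 35.0 in the I/R group and 443 ± 6.42 in the I/R+Rk2 group, and without Tomm6 it was 401 ± 22.8 and 404 ± 15.1 FPKM. The 3 uncoupling protein relatives together went from 45.9 ± 3.12 to 5.22 ± 1.52 FPKM, of which Slc25a30 held 45.1 and 4.47.

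**Figure D4:**
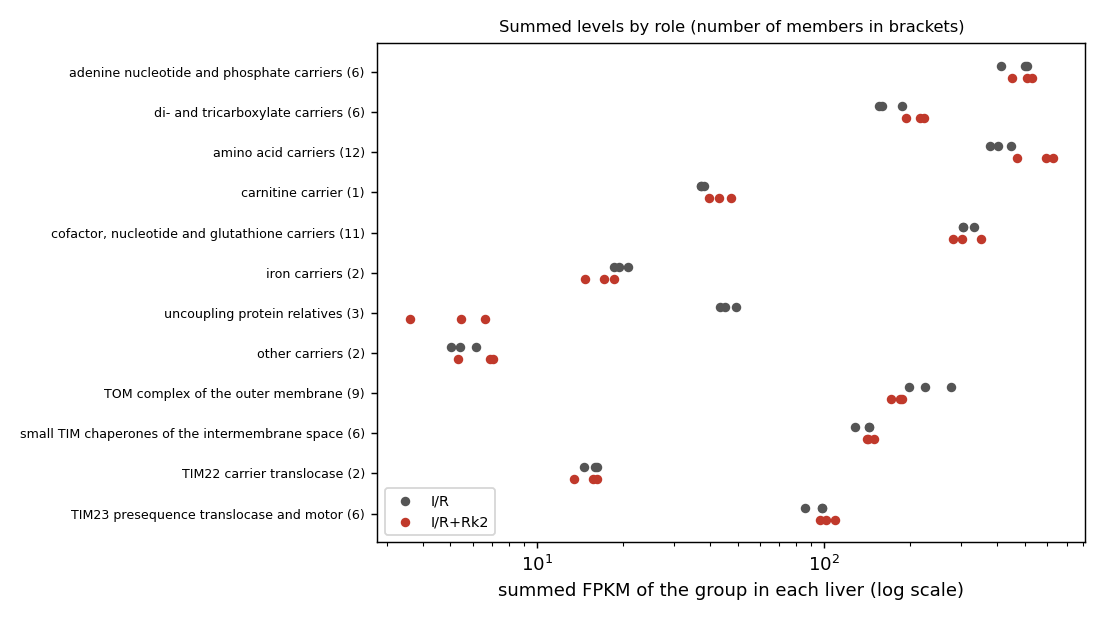
Summed FPKM of each group of members by role, on a log scale, with 1 point for each liver (I/R in grey, I/R+Rk2 in red). The uncoupling protein relatives go from a mean of 45.9 to 5.22 FPKM, the di- and tricarboxylate carriers from 168 to 211 FPKM, and the TOM sum of 233 in I/R is 152 FPKM without Tomm6.

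Whether related members changed by different amounts was asked in 10 pairs, from the log2 ratio of their FPKM in each liver, by an exact two-sided permutation test that cannot give a p below 0.1 with 3 livers against 3. Slc25a4 relative to Slc25a5 was -5.37, -6.20 and -5.67 in I/R and -6.90, -6.71 and -6.79 in the I/R+Rk2 group, a difference of -1.05. Timm17a relative to Timm17b differed by -1.03, Slc25a24 relative to Slc25a25 by -0.96, Timm8a1 relative to Timm8b by -0.30, and Slc25a33 relative to Slc25a36 by 1.89. In these 5 pairs the groups did not overlap and the exact permutation p was 0.1 (adjusted 0.2 over the 10 pairs), the smallest that it can give. The ratio of the mitoferrins Slc25a28 and Slc25a37 differed by 0.06 between groups, with SDs of 0.27 and 0.28, and that of Tomm40 and Tomm40l by 0.04, with SDs of 0.05 and 0.37. The remaining differences were -0.65 for Slc25a12 and Slc25a13, 0.66 for Slc25a23 and Slc25a25 and -0.12 for Slc25a39 and Slc25a40, with overlapping groups and exact permutation p-values from 0.2 to 0.9 over these 5 pairs. Timm17a was listed at 9.36 FPKM in I/R replicate 2 and at 3.40 and 3.66 in the other I/R livers, whereas its CPM of 29.7, 23.2 and 27.1 did not set that liver apart. By counts it did not pass (log2 fold change -0.31, adjusted p = 0.181).

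Fold changes moved with transcript length in these livers, and the import genes are short. With all genes split into 4 classes of equal size by their longest GENCODE transcript, from short to long, the median log2 fold change was 0.21, 0.07, -0.10 and -0.24. The median length was 2381 bases for import genes, 3254 for carriers and 3349 for all genes, and 10 of the 23 import genes and 13 of the 40 carriers lay in the shortest class. Spearman's rho of fold change with length was -0.22 across all 12341 genes with a length, -0.38 across the 40 carriers and -0.24 across the 23 import genes, genes that share the same 6 libraries. With the trend removed, 3 import genes were called higher in place of 7, and the median of import genes stood 0.0248 above that of all genes in place of 0.158. Of all genes, 17.6% were then called higher in place of 20.3%. The lower calls of Tomm20 and Tomm70a ended as well, and Tomm5 and Timm10 were called lower instead. For carriers the median then stood 0.208 above that of all genes, in place of 0.278.

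**Figure D5:**
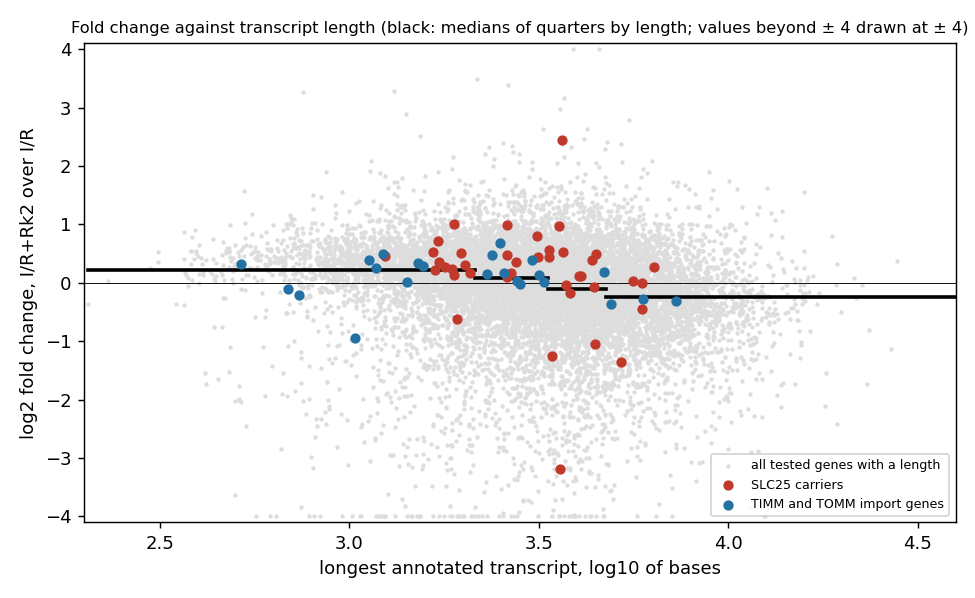
Log2 fold change of I/R+Rk2 over I/R against the log10 length in bases of the longest annotated transcript for all genes tested (light grey), carriers (red) and import genes (blue). Black bars are the medians of the 4 length classes, which go from 0.21 to -0.24. Carriers and import genes scatter on both sides of these bars.

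Import genes whose names fall outside Timm and Tomm were also examined, from a list of 23, and 11 (47.8%) were higher and 3 lower (median log2 fold change 0.38), beside 20.3% and 23.7% of all genes. Chchd4, the oxidoreductase that folds small TIM proteins and is also called Mia40, was lower at 22.3 ± 0.307 and 13.7 ± 0.301 CPM (log2 fold change -0.70, adjusted p = 0.00144). Its partner Gfer was higher at 23.5 ± 1.10 and 35.3 ± 2.71 CPM (log2 fold change 0.58, adjusted p = 0.00322), so the pair moved in opposite directions. Higher as well were the inner membrane peptidase Immp1l (log2 fold change 0.59, adjusted p = 0.00322) and the outer membrane protein Mtx2 (0.54, adjusted p = 0.00394). Of 16 other mitochondrial transport genes tested, 8 (50.0%) were higher and 1 lower (median 0.38), among them the outer membrane insertase Mtch2 (0.58, adjusted p = 0.00431), the sideroflexins Sfxn2 (0.54, adjusted p = 0.00515) and Sfxn5 (0.74, adjusted p = 0.00803), and the pyruvate carrier subunit Mpc1 (0.51, adjusted p = 0.00734).

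Of 18 enzymes that use the carriers' substrates in the matrix or cytosol, 13 (72.2%) were higher and 1 lower (median 0.45), beside 20.3% and 23.7% of all genes. Cps1 and Ass1, both among the higher enzymes, are also among the hepatocyte markers counted above. The carnitine enzymes Crat and Cpt2 had log2 fold changes of 0.82 (adjusted p = 0.00144) and 0.44 (adjusted p = 0.00649), the malate dehydrogenase Mdh1 had 0.59 (adjusted p = 0.0059) and the urea cycle enzyme Otc had 0.73 (adjusted p = 0.00712). The lower one was Alas1, the rate-limiting enzyme of heme synthesis, named after its values were seen, at 511 ± 68.8 and 173 ± 91.4 CPM (log2 fold change -1.56, adjusted p = 0.00949). Regulators of mitochondrial biogenesis gave 2 higher (18.2%) and 1 lower (9.09%) of 11 (median -0.06), and the share higher is near the 20.3% of all genes. Tfb1m, a mitochondrial rRNA methyltransferase, and the nuclear receptor Esrra were higher (log2 fold changes 0.70 and 0.58, adjusted p = 0.00591 and 0.00967), and the PGC-1-related coactivator Pprc1 was lower (-1.37, adjusted p = 0.0187). Ppargc1b, the fourth by p, had a log2 fold change of 1.05 and an adjusted p of 0.0501.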

How the data were processed

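Libraries were made from 250 ng of RNA of 3 I/R and 3 I/R+Rk2 livers with an MGI kit. The submitters' processing notes name FastQC 0.11.5, HISAT2 2.2.1, StringTie 1.3.3 and the mm10 build. The authors deposited whole-number counts per gene and a table of FPKM values from StringTie. Annotation, strand and counting tool are not given in the sources used here. Counts were fitted in R 4.3.3 with edgeR 4.0.16 (filterByExpr, TMM, quasi-likelihood F test on all 6 libraries, no covariates), and p-values were Benjamini-Hochberg adjusted over 12411 genes. A call is an adjusted p below 0.05. A standard error is the absolute log2 fold change over the root of the F statistic. Where the study used DESeq2, DESeq2 1.42.0 served as an alternative. Gene positions and lengths are from GENCODE M21 (66 of 66 members matched), on the same build.

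Members and lists were chosen with earlier results of these data known. Named are members that passed with a fold above 2, the 6 smallest p per direction and class, the 5 highest by FPKM, members of the 10 pairs, untested members and up to 4 genes by p of each other list. Other members are named to complete their role group. Libraries of a group differed beyond sampling noise, with a chi-square per degree of freedom of at least 31.4. Alternatives were other scalings, filters and tools, limma 3.58.1 on log2(FPKM + 1) and log2(FPKM + 0.1), a length correction, a replicate block and leaving out each liver. A column of row totals was not used. The values of 1 carrier are not reported here, though it stayed in every test and count.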

Additional observations from a re-analysis of the deposited data

How the results depend on the processing

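Of the 29 members called, 11 kept call and direction in every alternative that tested them, of 17, 18 lost the call in at least 1, and 1 of these turned sign. That was Timm8b, at -0.0419 with the length trend removed (adjusted p = 0.701). Of the 34 members not called, 9 were called in some alternative. The number of carriers called higher, 15, became 8 on library size alone and 6, 6 and 7 with limma on FPKM with a pseudocount of 1, of 0.1 and of 1 without a filter. Import genes called higher, 7, became 1 in each of these 4 analyses and 3 with the length trend removed. Of all genes, 20.3% were called higher in the main fit, 10.6% on library size alone and 11.8%, 11.6% and 7.27% with limma. That share was 17.6% with the length trend removed. Both limma fits with a filter tested 33 carriers in place of 40, and the one without tested 43. Carriers called lower, 5, were 6 on library size alone and 5 in each limma analysis, and import genes called lower stayed at 2 there. Import genes called lower became 1 with upper-quartile scaling. Carriers higher by over 2-fold, 1, became 2 with relative log expression scaling and 4 with upper-quartile scaling. They were 3 with DESeq2, 2 with the length trend removed, and 0 with at least 10 counts in every sample and in all 3 limma analyses. The 1 carrier of the main fit, Slc25a35, fell below the 10-count filter and the FPKM filter, so these fits could not call it. In limma without a filter, the pseudocount of 1 exceeded its FPKM in every liver and its log2 fold change was 0.252. Carriers lower by over 2-fold, 4, became 2 with limma at a pseudocount of 1, with and without the filter. Slc25a36, at a mean of 0.442 FPKM, was below that filter. The median log2 fold change of carriers, 0.27, became 0.108 on library size alone, 0.132, 0.135 and 0.0605 with limma, and 0.191 with the length trend removed. The median log2 fold change of import genes, 0.15, became -0.0114, -0.0293, -0.0314, -0.0293 and 0.00733 in the same order. The median of all genes was -0.17 on library size alone and -0.122, -0.145 and -0.0493 with limma. Leaving out 1 liver gave 11 to 16 carriers higher and 3 to 5 lower, 4 to 6 import genes higher and 1 to 2 lower, and 1 to 3 carriers higher by over 2-fold. Of all genes, 13% to 19% were called higher in these fits, and from 2213 of 12565 to 3058 of 12653 lower. The 3 lower carriers came without I/R replicate 1, the 4 import genes without I/R+Rk2 replicate 2, and 1 lower import gene without I/R replicate 3 or any I/R+Rk2 liver. Calls ended without I/R replicate 1 for Slc25a4, Slc25a10, Slc25a16, Slc25a20, Slc25a36, Slc25a42, Timm8b and Tomm70a, without I/R replicate 2 for Slc25a16, Slc25a20, Timm44, Timm8b and Tomm22, and without I/R replicate 3 for Slc25a4, Slc25a10, Slc25a17, Slc25a20, Slc25a42, Timm44, Tomm22 and Tomm70a. They ended without I/R+Rk2 replicate 1 for Slc25a4, Tomm22 and Tomm70a, without replicate 2 for these and Slc25a10, Slc25a16, Slc25a17, Slc25a20, Slc25a42, Timm44 and Timm8b, and without replicate 3 for Slc25a4, Slc25a10, Slc25a20, Slc25a42, Timm44 and Tomm70a. The cause of these moves was not tested.

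Whether replicate numbers pair the livers is not given in the labels. Deviations of same-numbered livers from their group means correlated at -0.0559, 0.00522 and -0.0579, which cannot decide it with 3 livers in each group. A replicate block gave 14 carriers higher and 4 lower, 7 import genes higher and 1 lower, and 2 carriers higher by over 2-fold. With that block 17.1% of all genes were called higher, and 2595 of 12411 lower. Depth limits Slc25a35 and the 3 untested carriers, whose counts reached at most 9 in any liver. Summing Tomm6 with Gm21981 and Timm10b with Gm45799, and leaving Slc25a47 or Tomm6 out of the FPKM sums, were chosen after seeing the data.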

Other observations

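Markers of other liver cells, read from lists chosen as above, gave further values. Of 10 Kupffer cell markers 2 (20%) were lower and none higher, where 23.7% of all genes were lower and 20.3% higher. Their summed level was 93.3 to 146 CPM in the I/R group and 75.1 to 91.6 CPM in the I/R+Rk2 group. Endothelial markers had 3 of 8 higher and 3 lower (37.5% each). Stellate cell markers had 1 of 10 higher (10%) and 2 lower (20%), and cholangiocyte markers 1 of 6 higher (16.7%) and 2 lower (33.3%). The 5 erythroid markers tested were all higher, and the erythroid sum was 1301 to 2520 CPM without and 3243 to 4196 CPM with Rk2. T, NK and B cell markers summed to at most 2.55 CPM in any liver and none was tested.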
